A study of Homo sapiens with 28 samples.

Results

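The genes described here encode subunits of condensin and cohesin, the ring-shaped complexes that fold chromosomes and hold sister chromatids together. They were chosen by symbol, as the probe sets whose platform annotation names SMC2, SMC4, NCAPD2, NCAPG or NCAPH of condensin I, or SMC1A, SMC3, RAD21, STAG1 or NIPBL of the cohesin system. Of these 10 genes, 9 had a probe set of their own, and all 9 were among the 9285 of 22357 named genes bright enough to be tested. RAD21 has no value here, because its probe sets also name a neighbouring RNA gene. The study used CHL-1, an established human melanoma cell line, and BAY1238097, an inhibitor of the bromodomains of BET proteins, which bind acetylated histones and help to transcribe many genes. The compound was given at 75 nM or at 468 nM, with its solvent DMSO as the control, and total RNA was taken after 4 h or 24 h. There were 4 arrays for DMSO at each time and 5 arrays for each dose at each time, 28 in all. All groups were the same cell line with no other genotype or treatment recorded.

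Condensin and cohesin are built alike. A pair of SMC proteins, long coiled-coil ATPases, is closed into a ring by a further protein called a kleisin, to which HEAT-repeat subunits bind. Condensin compacts chromosomes for mitosis and is needed mainly by dividing cells, whereas cohesin both holds sister chromatids together until anaphase and forms chromatin loops in interphase. Cohesin is therefore present throughout the cell cycle and in cells that do not divide.

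Values are log2 of the deposited array intensities, and a change is a difference of group means on that scale with the standard error of a limma fit to all tested genes. A gene was called when its p-value, adjusted by the Benjamini-Hochberg method over all 9285 genes, was below 0.05. A level can be compared between groups for 1 gene but not between genes, since each probe set has its own brightness. The labels do not state whether arrays within a group represent separate cultures, so each p-value reflects only the spread among the samples at hand, some of which may be technical. Array medians lay between 2.44 and 2.49, and each array's median correlation with the other arrays of its group between 0.96 and 0.98. Of 10 melanoma and neural crest markers used to check the line's identity, 5 passed the filter. SOX10, a transcription factor of melanocytes and melanoma, had a mean of 9.55. NES, AXL, VIM and S100B had means of 8.23, 8.12, 7.35 and 6.95. MITF, PMEL, MLANA and TYR, the defining pigment-cell genes, were below the filter, and DCT had no probe set of its own. Of the 8 keratinocyte and 8 endothelial markers none passed the filter, and of 8 leukocyte markers only CD68 did. Replicates 2 and 4 of 468 nM at 24 h stood somewhat apart. limma's array weights for them were 0.36 and 0.44, against 0.69 to 1.60 for the other arrays. The changes at 468 nM and 24 h are also given without them.

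After 24 h at 468 nM, the 5 condensin genes were all lower than in DMSO, by 1.49-fold to 2.49-fold. Of the 4 cohesin genes measured, SMC1A, SMC3 and STAG1 were lower by 1.25-fold to 1.64-fold, and NIPBL, the loader, was not called. No member was called at 4 h or at 75 nM. The 8 lower members stand against 25.1% of all tested genes called lower in this comparison, and 45.6% called in either direction. The median change was -1.27 over the condensin genes, -0.39 over the cohesin genes and -0.02 over all tested genes. The 4 arrays of DMSO and 5 of 468 nM did not overlap at 24 h for 7 of the 9 members, or 77.8%, against 30.1% of all tested genes. The exceptions were STAG1 and NIPBL.

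Without replicates 2 and 4 of 468 nM, 8 members were again called lower. Of all 9285 tested genes 2138 were called lower in that run, against 2335 with all arrays. The medians were then -1.34 over the condensin genes and -0.46 over the cohesin genes. The condensin changes were -1.4 in SMC2, -0.61 in SMC4, -1.34 in NCAPH, -1.53 in NCAPG and -0.77 in NCAPD2. Among the cohesin genes they were -0.55 in SMC1A, -0.36 in SMC3, -0.89 in STAG1 and 0.03 in NIPBL. Each of the 8 called changes was larger in size without these arrays than with them. For each of these 8 genes 1 of the 2 arrays was the highest of its group, so their removal tended to lower the group mean. Leaving them out was chosen after seeing the data, and the larger changes add no support to the calls.

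**Figure D1:**
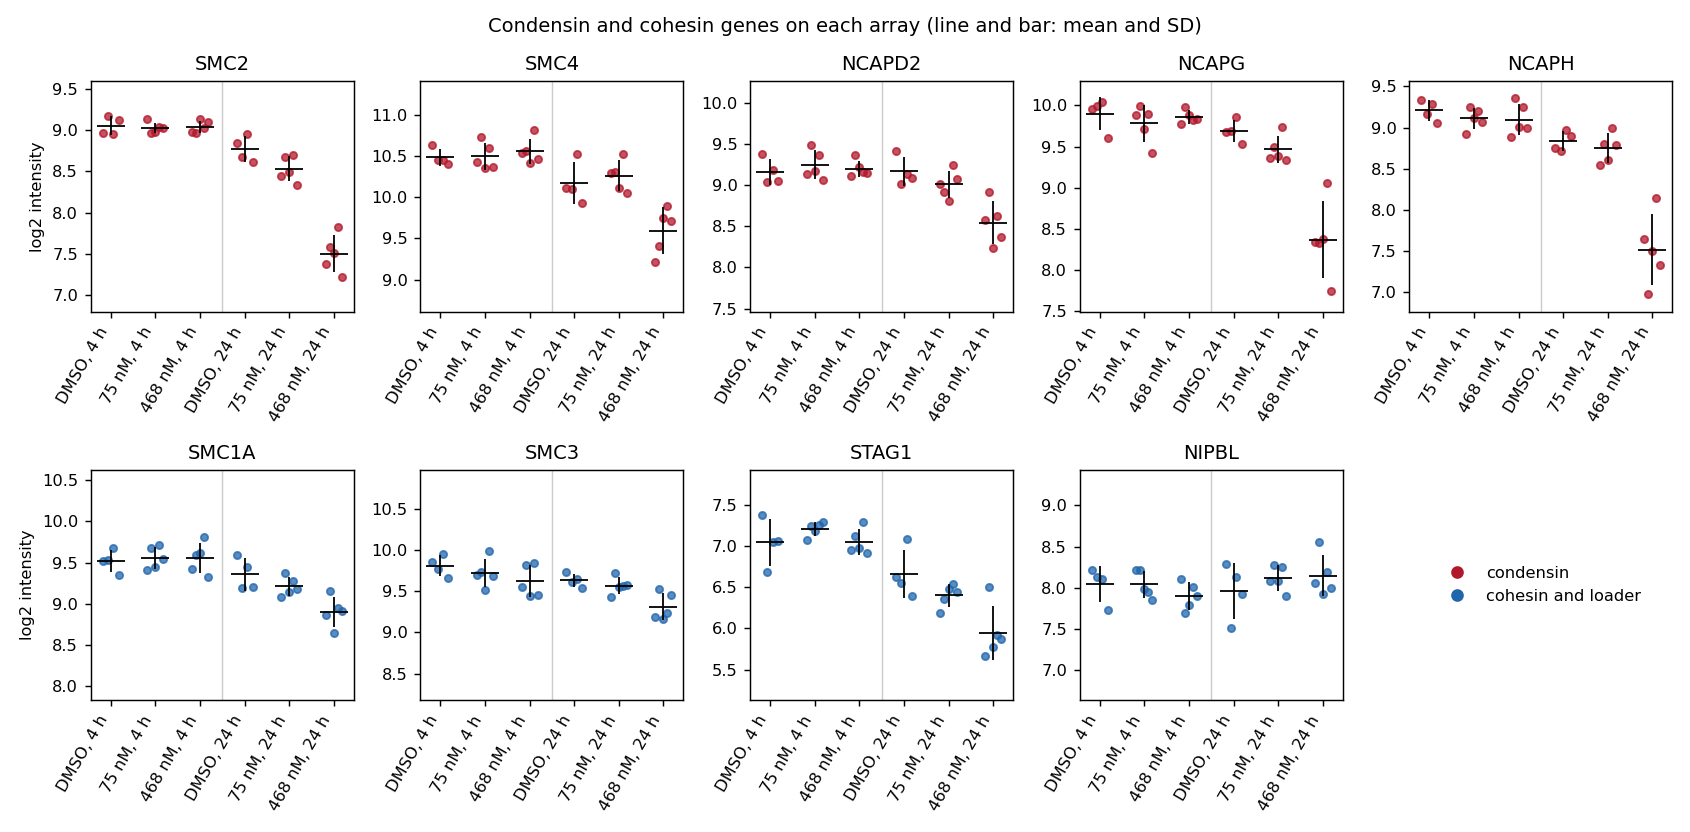
Log2 intensity of each of the 9 members on every array, with a panel per gene, the 6 groups of dose and time on the horizontal axis, a point per array, and bars for the group mean and SD. The 468 nM, 24 h points of SMC2, NCAPG and NCAPH lie below every other group, while those of NIPBL lie among the rest.

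The promoters of NCAPG and SMC2 are printed because these genes, with NCAPH, fell most. Those of NCAPH and of NIPBL, the member that was not called, are printed for comparison. Each window runs 5′ to 3′ on the gene's strand from 250 bases before the RefSeq transcription start to 30 bases after it (RefSeq, GRCh38.p14). Capitals mark TTTGAA, on either strand, the core letters of the cell cycle genes homology region, a promoter element described in genes that peak in G2 and mitosis. NCAPG lies at chr4:17810729-17811008, SMC2 at chr9:104094059-104094338, NCAPH at chr2:96335516-96335795 and NIPBL at chr5:36876519-36876798, all on the plus strand.
NCAPG: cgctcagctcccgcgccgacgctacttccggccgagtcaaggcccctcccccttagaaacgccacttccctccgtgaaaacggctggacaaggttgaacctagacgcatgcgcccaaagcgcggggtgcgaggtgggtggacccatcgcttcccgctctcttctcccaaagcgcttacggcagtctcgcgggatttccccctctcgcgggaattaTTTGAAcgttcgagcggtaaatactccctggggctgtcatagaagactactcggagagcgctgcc
SMC2: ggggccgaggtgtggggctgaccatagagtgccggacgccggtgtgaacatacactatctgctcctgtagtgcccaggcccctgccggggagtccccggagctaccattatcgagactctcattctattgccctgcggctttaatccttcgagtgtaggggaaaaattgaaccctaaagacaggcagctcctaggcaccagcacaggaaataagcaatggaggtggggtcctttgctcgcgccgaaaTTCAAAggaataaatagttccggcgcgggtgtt
NCAPH: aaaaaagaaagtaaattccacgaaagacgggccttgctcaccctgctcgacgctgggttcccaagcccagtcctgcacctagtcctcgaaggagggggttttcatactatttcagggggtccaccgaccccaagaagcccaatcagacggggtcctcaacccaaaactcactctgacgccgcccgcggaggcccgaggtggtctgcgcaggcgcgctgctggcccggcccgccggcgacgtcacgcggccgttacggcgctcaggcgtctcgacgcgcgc
NIPBL: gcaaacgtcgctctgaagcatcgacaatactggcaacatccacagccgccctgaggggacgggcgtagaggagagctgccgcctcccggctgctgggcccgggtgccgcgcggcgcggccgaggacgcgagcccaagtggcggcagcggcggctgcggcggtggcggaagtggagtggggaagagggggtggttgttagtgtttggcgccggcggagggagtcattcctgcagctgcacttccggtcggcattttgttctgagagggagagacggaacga
TTTGAA stood 35 bases before the start in NCAPG and, on the minus strand, 3 bases before it in SMC2. It was also in the windows of NCAPD2, 145 bases before the start, and SMC4, 75 bases before it. That made 4 of the 5 condensin genes, NCAPH being the one without it. Among the 4 cohesin genes it was in SMC3 alone, 151 bases before the start. Of all 35116 promoter windows of this length, 14.5% held it. CCAAT, a box bound by the factor NF-Y, was in NCAPD2 and NCAPH of condensin and in STAG1 of cohesin, against 33.6% of all windows. GCGGGAA, a form of the site bound by E2F factors, was in NCAPG, SMC1A and STAG1, against 6.15%. CACGTG, the E-box bound by MYC among others, was in no member's window, against 6.94%. SMC2, SMC4 and SMC1A have 2 listed starts each, and a gene counts as holding a motif if any of its windows does. A match describes only these letters in this window.

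SMC2 and SMC4 are the ATPase pair of condensin and are shared by condensin I and II. SMC2 measured 8.84, 8.68, 8.96 and 8.61 on the DMSO arrays at 24 h, 8.45, 8.67, 8.50, 8.70 and 8.34 at 75 nM and 7.38, 7.59, 7.51, 7.83 and 7.22 at 468 nM. Every 468 nM array was below every array of the other 5 groups. The change from DMSO was -1.27 ± 0.10 (adjusted p = 5.43e-10), or 2.41-fold lower. SMC4 measured 10.11, 10.10, 10.53 and 9.93 in DMSO at 24 h, 10.30, 10.31, 10.11, 10.53 and 10.06 at 75 nM and 9.21, 9.41, 9.75, 9.89 and 9.72 at 468 nM. The highest 468 nM array, replicate 4, came close to the lowest DMSO array but did not reach it. The change was -0.57 ± 0.14 (adjusted p = 0.00114), 1.49-fold lower, and whether the partners differ in their change was not tested.

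NCAPH is the kleisin that closes the condensin I ring. It measured 8.75, 8.72, 8.98 and 8.90 in DMSO at 24 h, 8.55, 8.81, 8.61, 9.0 and 8.79 at 75 nM and 7.65, 6.98, 7.5, 8.15 and 7.33 at 468 nM. The 468 nM arrays spanned more than 1 log2 unit, with replicate 2 lowest and replicate 4 highest, yet none reached the DMSO range. NCAPH fell by 2.49-fold, a change of -1.32 ± 0.15 (adjusted p = 1.48e-07).

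NCAPG and NCAPD2 are the HEAT-repeat subunits of condensin I, which bind the kleisin and DNA. NCAPG measured 9.68, 9.69, 9.86 and 9.53 in DMSO at 24 h, 9.37, 9.50, 9.39, 9.74 and 9.34 at 75 nM and 8.35, 8.33, 8.38, 9.06 and 7.75 at 468 nM. It had the widest 468 nM spread of the condensin genes, from replicate 5 at the bottom to replicate 4 at the top, and the groups still did not overlap. Its change was -1.32 ± 0.16 (adjusted p = 4.17e-07), 2.49-fold lower. NCAPD2 measured 9.42, 9.02, 9.14 and 9.08 in DMSO at 24 h, 9.01, 8.92, 8.80, 9.24 and 9.07 at 75 nM and 8.58, 8.92, 8.23, 8.62 and 8.37 at 468 nM. The top 468 nM array, replicate 2, lay just under the lowest DMSO array. NCAPD2 fell by 1.54-fold, a change of -0.62 ± 0.12 (adjusted p = 0.000197).

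Set among all tested genes by the size of the change at 468 nM and 24 h, NCAPG had 3.50% of genes with a lower value, NCAPH 3.52% and SMC2 3.94%. NCAPD2 and SMC4 stood at 14.6% and 16.4%. A fall of at least 2-fold that was also called was seen in 625 tested genes, or 6.73%, and NCAPG, NCAPH and SMC2 were among them.

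SMC1A and SMC3 are the ATPase pair of cohesin. SMC1A measured 9.60, 9.19, 9.45 and 9.20 in DMSO at 24 h, 9.09, 9.38, 9.14, 9.27 and 9.18 at 75 nM and 8.86, 9.16, 8.65, 8.95 and 8.91 at 468 nM. The highest 468 nM array, replicate 2, fell just short of the lowest DMSO array. The change was -0.45 ± 0.11 (adjusted p = 0.00184), 1.37-fold lower. SMC3 measured 9.74, 9.61, 9.65 and 9.54 in DMSO at 24 h, 9.43, 9.72, 9.55, 9.56 and 9.57 at 75 nM and 9.19, 9.52, 9.16, 9.24 and 9.45 at 468 nM. The groups touched without overlapping, replicate 2 of 468 nM lying just under the lowest DMSO array. SMC3 changed by -0.32 ± 0.11 (adjusted p = 0.0154), 1.25-fold lower. That call was lost when dim genes were kept in the test (adjusted p = 0.0571) and when only the 2 groups compared were fitted (adjusted p = 0.0585).

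STAG1 is one of the alternative HEAT-repeat subunits of mitotic cohesin, the other being STAG2. STAG1 measured 6.62, 6.54, 7.08 and 6.39 in DMSO at 24 h, 6.18, 6.36, 6.48, 6.53 and 6.44 at 75 nM and 5.67, 6.50, 5.78, 5.92 and 5.87 at 468 nM. Replicate 2 of 468 nM lay inside the DMSO range and the other 4 arrays lay below it. The change was -0.71 ± 0.15 (adjusted p = 0.000374), 1.64-fold lower. NIPBL loads cohesin onto chromatin. It measured 8.28, 7.51, 8.13 and 7.93 in DMSO at 24 h, 8.09, 8.28, 8.08, 8.26 and 7.90 at 75 nM and 8.06, 8.56, 7.93, 8.20 and 7.99 at 468 nM. The groups overlapped, and the difference of 0.18 ± 0.14 had a 95% interval of -0.12 to 0.48 (adjusted p = 0.314). By the size of the change, STAG1 had 12% of tested genes with a lower value, SMC1A 21.1%, SMC3 28% and NIPBL 66.1%.

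**Figure D2:**
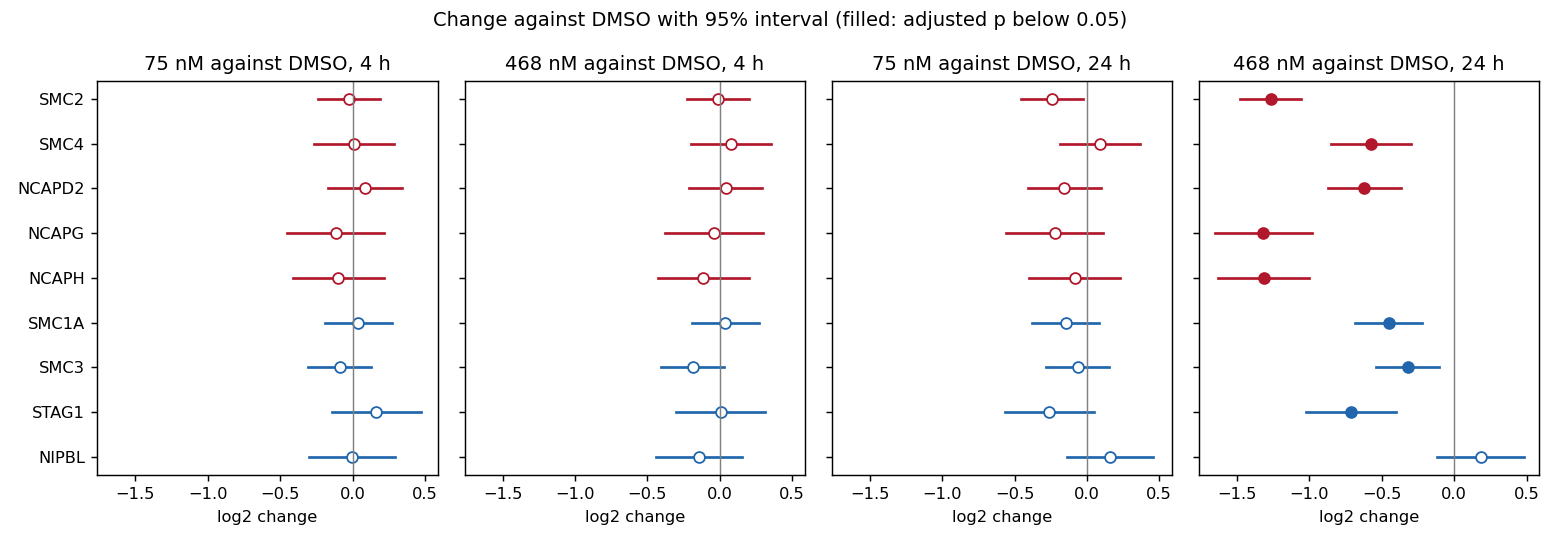
Log2 change from DMSO of the same time with its 95% interval for the 9 members, at 75 nM and 468 nM and at 4 h and 24 h; filled points are called at an adjusted p below 0.05. At 468 nM and 24 h SMC2, NCAPG and NCAPH lie between -1.32 and -1.27, SMC4, NCAPD2, STAG1, SMC1A and SMC3 between -0.71 and -0.32, and NIPBL is the open point.

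To set condensin beside cohesin on each array, the members' log2 values were averaged over the 5 condensin genes and over the 4 cohesin genes, and the DMSO mean of the same time was subtracted. At 24 h and 468 nM the condensin average was -1.02 ± 0.24 (SD, n = 5) and the cohesin average -0.33 ± 0.22 (SD, n = 5). On the 5 arrays condensin stood at -1.09, -1.08, -1.05, -0.62 and -1.25, and cohesin at -0.46, 0.03, -0.52, -0.33 and -0.35, in the order of replicates 1 to 5. Condensin was below cohesin on every one of these arrays.

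The gap between them, condensin minus cohesin, averaged -0.69 ± 0.32 (SD, n = 5) and ran from -1.11 on replicate 2 to -0.29 on replicate 4. On the DMSO arrays of 24 h it ran from -0.12 to 0.11, and at 75 nM and 24 h from -0.16 to 0.11 with a mean of -0.04. At 4 h the gap averaged -0.06 at 75 nM and 0.06 at 468 nM. Thus the 468 nM, 24 h arrays did not overlap with those of any other group. Leaving out any one array moved its mean to between -0.79 and -0.59, and without replicates 2 and 4 it was -0.69. The cohesin average includes the loader NIPBL, which changed by 0.18, while SMC1A, SMC3 and STAG1 changed by -0.45, -0.32 and -0.71. NIPBL therefore made the fall of the cohesin average smaller and the gap wider, and a gap without NIPBL was not calculated. Not every condensin gene fell further than every cohesin gene, as the change in STAG1 was larger than those in SMC4 and NCAPD2, though by less than its standard error.

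**Figure D3:**
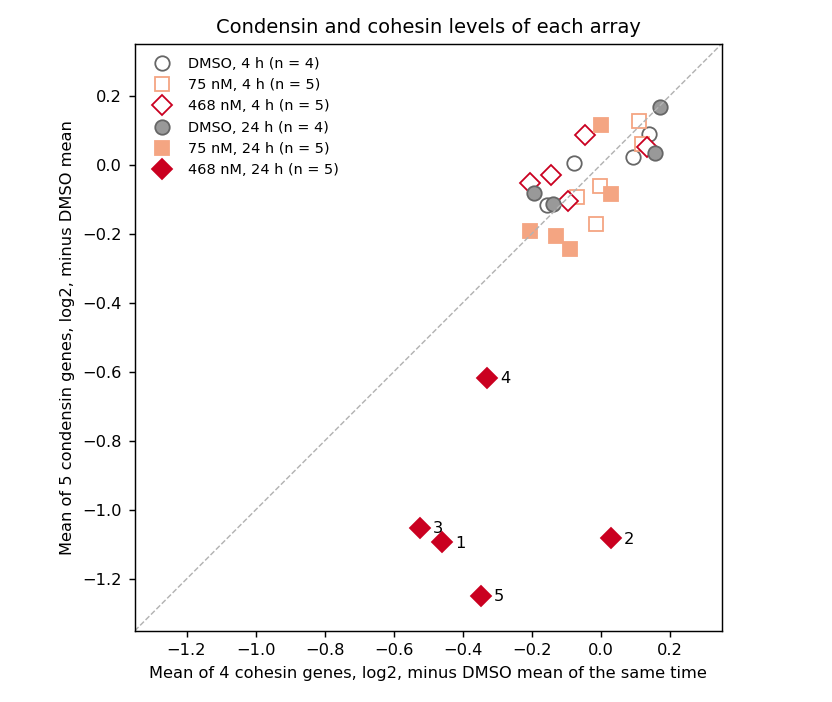
Mean log2 value of the 5 condensin genes (vertical axis) and of the 4 cohesin genes (horizontal axis) on each of the 28 arrays, minus the DMSO mean of the same time. The 468 nM, 24 h arrays, numbered by replicate, are separated along the condensin axis, from -1.25 to -0.62, and spread along the cohesin axis from -0.52 to 0.03.

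The 2 arrays of low weight departed in different ways. Replicate 2 was the highest array of its group for SMC1A, SMC3, STAG1, NIPBL and NCAPD2 and the lowest for NCAPH. Replicate 4 was the highest for SMC2, SMC4, NCAPG and NCAPH.

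At 4 h no member was called at either dose. At 75 nM limma called 0 of 9, with 0 at an unadjusted p below 0.05, where 0.679% of all tested genes were called. At 468 nM it also called 0 of 9, with 0 at an unadjusted p below 0.05, where 10.9% of all tested genes were called. The condensin changes at 468 nM ran from -0.11 in NCAPH to 0.08 in SMC4. The cohesin changes ran from -0.19 in SMC3, with a 95% interval of -0.40 to 0.03, to 0.04 in SMC1A. For the genes that fell most at 24 h, the 4 h differences at 468 nM were bounded by 95% intervals of -0.23 to 0.20 for SMC2, -0.38 to 0.30 for NCAPG and -0.43 to 0.20 for NCAPH. SMC2 at 4 h ranged from 8.95 to 9.18 in DMSO, 8.96 to 9.13 at 75 nM and 8.96 to 9.13 at 468 nM, and these ranges overlap almost wholly. The compound's action was visible on the same arrays. HEXIM1, a gene commonly used to read out BET inhibition, changed by 1.66 at 4 h and 468 nM (adjusted p = 5.2e-10), and MYC, a gene BET inhibitors often lower, by -1.07 (adjusted p = 2.59e-06).

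At 24 h and 75 nM 0 of the 9 members were called, against 0.872% of all tested genes. SMC2 alone had an unadjusted p below 0.05, with a change of -0.24 ± 0.10 (unadjusted p = 0.0275, adjusted p = 0.247). The other condensin genes lay between -0.22 in NCAPG and 0.09 in SMC4, and the cohesin genes between -0.26 in STAG1 and 0.16 in NIPBL. The difference between doses was itself tested. At 24 h 7 members were lower at 468 nM than at 75 nM, against 17.4% of all tested genes called lower, namely the 5 condensin genes, SMC1A and STAG1. The dose differences were -1.23 ± 0.14 in NCAPH (adjusted p = 4.59e-07), -1.09 ± 0.16 in NCAPG (adjusted p = 6.06e-06) and -1.03 ± 0.10 in SMC2 (adjusted p = 1.84e-08). They were smaller in SMC4 at -0.66 (adjusted p = 0.000245) and NCAPD2 at -0.46 (adjusted p = 0.00333).

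Among cohesin genes the dose difference at 24 h was -0.45 ± 0.14 in STAG1 (adjusted p = 0.0162) and -0.30 ± 0.11 in SMC1A (adjusted p = 0.0294). SMC3 missed the threshold at -0.26 ± 0.10 (adjusted p = 0.0532) and NIPBL differed by 0.02, with a 95% interval of -0.26 to 0.31. The SMC1A call was lost without replicate 1 (adjusted p = 0.0541) or 3 (0.0983) of 468 nM or replicate 2 (0.0792) or 4 (0.0606) of 75 nM. The STAG1 call was lost without replicate 1 of 468 nM (adjusted p = 0.052), and both calls were lost when dim genes were kept in the test and when arrays were shifted by 9 reference genes. Of these 9 genes, 7 were themselves called at 468 nM against DMSO at 24 h, 3 higher and 4 lower, with changes from -0.49 to 0.74. SMC3 was called without replicate 2 (adjusted p = 0.0252) or 5 (0.0415) of 468 nM or replicate 1 of 75 nM (0.0444), and without replicates 2 and 4 of 468 nM together (0.0493), which made 8 members. It was also called with array weights (0.0315), a filter at log2 7 (0.0371), an intensity trend with robust spread (0.035) and repeated quantile normalization (0.0354). Without replicates 2 and 4 of 468 nM 1407 of all 9285 tested genes were lower than at 75 nM and 24 h, against 1614 in the main fit. At 4 h 0 of 9 members differed between doses, with 0 at an unadjusted p below 0.05, against 2.56% of all tested genes.

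The effect of 468 nM was more negative at 24 h than at 4 h in 7 members, the same 5 condensin genes with SMC1A and STAG1, against 12.7% of all tested genes called in that direction. This difference of differences was -1.28 ± 0.23 in NCAPG (adjusted p = 0.000267), -1.25 ± 0.15 in SMC2 (adjusted p = 1.46e-06) and -1.20 ± 0.22 in NCAPH (adjusted p = 0.000241). It was -0.72 in STAG1 (adjusted p = 0.0148), -0.66 in NCAPD2 (adjusted p = 0.00702), -0.65 in SMC4 (adjusted p = 0.0144) and -0.49 in SMC1A (adjusted p = 0.0264). SMC3 at -0.14 (adjusted p = 0.558) and NIPBL at 0.33 (adjusted p = 0.263) were not called. The SMC1A call was lost without any one of 5 arrays, with adjusted p from 0.0531 to 0.0664, namely replicate 3 of 468 nM at 24 h, replicate 4 of 468 nM at 4 h, replicates 1 and 3 of DMSO at 24 h and replicate 4 of DMSO at 4 h. With dim genes kept in the test 4 members were called, SMC4, STAG1 and SMC1A being lost. With arrays shifted by 9 reference genes also 4 were called, NCAPD2, STAG1 and SMC1A being lost. Calls over all genes fell as well. With dim genes kept 849 of 22357 genes were called lower, and after the shift 749 of 9285, against 1179 of 9285 in the main fit. SMC2, NCAPG and NCAPH were called under both of these alternatives. Without replicates 2 and 4 of 468 nM 7 members were called, and 1192 of all 9285 tested genes were called lower. For 75 nM the same difference called 0 of 9 members, with 0 at an unadjusted p below 0.05, against 0.0323% of all tested genes.

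In DMSO alone, 24 h against 4 h, 0 of 9 members were called, against 5.23% of all tested genes, though 4 had an unadjusted p below 0.05. These were STAG1 at -0.38 ± 0.16, NCAPH at -0.38 ± 0.16, SMC4 at -0.32 ± 0.14 and SMC2 at -0.28 ± 0.11, all lower at 24 h. Of the 9 members 8 had a value below 0 in this comparison, the exception being NCAPD2. The fall at 468 nM is measured from the 24 h DMSO arrays and so does not include this difference.

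Condensin II shares SMC2 and SMC4 with condensin I and has its own kleisin, NCAPH2, and HEAT-repeat subunits, NCAPD3 and NCAPG2. At 468 nM and 24 h all 3 fell, NCAPG2 by 2.41-fold (-1.27, adjusted p = 1.53e-08), NCAPD3 by 1.92-fold (-0.94, adjusted p = 8.3e-08) and NCAPH2 by 1.68-fold (-0.75, adjusted p = 0.00439). So all 8 subunit genes of both condensins were called lower, against 25.1% of all tested genes. For NCAPH2 the 468 nM arrays ran from 4.9 to 6.5 and overlapped the DMSO range of 6.3 to 6.6. Its lowest 468 nM array was under the filter value of 5, so the size of its fall is uncertain. None of the 3 condensin II genes was called at 4 h or at 75 nM. Without replicates 2 and 4 of 468 nM the changes were -1.51 in NCAPG2, -1.04 in NCAPD3 and -0.75 in NCAPH2, all called.

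Of the other cohesin subunits only STAG2, the alternative to STAG1, was bright enough to be tested, and it fell by 1.56-fold (-0.64, adjusted p = 2.95e-07), or -0.70 without replicates 2 and 4 of 468 nM. STAG3, REC8, RAD21L1 and SMC1B, which serve meiotic cohesin, were below the filter. The genes that load, acetylate and release cohesin were mixed, with 5 of 9 lower and 0 higher, where 25.1% of all tested genes were called lower. Sororin (CDCA5), which stabilises cohesin on replicated chromatids, changed by -1.50, and the S phase acetyltransferase ESCO2 by -0.98. On the 468 nM, 24 h arrays CDCA5 was below the filter value of 5, so the size of its fall is uncertain. The release factors PDS5B, PDS5A and WAPL changed by -0.59, -0.39 and -0.26. ESCO1, the acetyltransferase active outside S phase, stood at 0.16 (adjusted p = 0.24), MAU2, the partner of NIPBL, at 0.17 (adjusted p = 0.23), and CTCF, which stops cohesin at loop anchors, at -0.05 (adjusted p = 0.647). Without replicates 2 and 4 of 468 nM MAU2 was called higher at 0.30 (adjusted p = 0.0486), and the same 5 genes were called lower, from -1.59 in CDCA5 to -0.30 in WAPL.

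All 3 tested genes that protect or cleave centromeric cohesin fell, where 25.1% of all tested genes were called lower. Separase (ESPL1), the protease that opens cohesin at anaphase, changed by -1.93 (adjusted p = 4.17e-07), the shugoshin SGO1 by -1.45 (adjusted p = 1.13e-06) and SGO2 by -0.97 (adjusted p = 0.000186). The 468 nM, 24 h means of ESPL1, at 4.61, and SGO2, at 4.97, were under the filter value as well, which leaves the size of each fall uncertain. Without replicates 2 and 4 of 468 nM the changes were -2.11, -1.75 and -1.13. The partners of condensin on the mitotic chromosome fell as well, 3 of 3, against the same 25.1% of all tested genes. MKI67, which coats mitotic chromosomes, changed by -1.75, the kinesin KIF4A by -1.16 and topoisomerase TOP2A by -1.07. Without the same arrays they changed by -1.90, -1.41 and -1.31.

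SMC5/6, the remaining SMC complex, acts in DNA repair and in the resolution of joined chromatids. Of its 7 tested genes 1 was lower and 0 were higher, where 25.1% of all tested genes were called lower. With so few genes this count does not set the list apart from that share. Without replicates 2 and 4 of 468 nM the counts were again 1 and 0. SMC6 changed by -0.33 (adjusted p = 0.00266) and SMC5 by 0.01 (adjusted p = 0.934). The median change over the list was -0.19, against -0.02 over all tested genes. For 468 nM against 75 nM at 24 h 2 of the 7 genes were called lower, where 17.4% of all tested genes were.

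**Figure D4:**
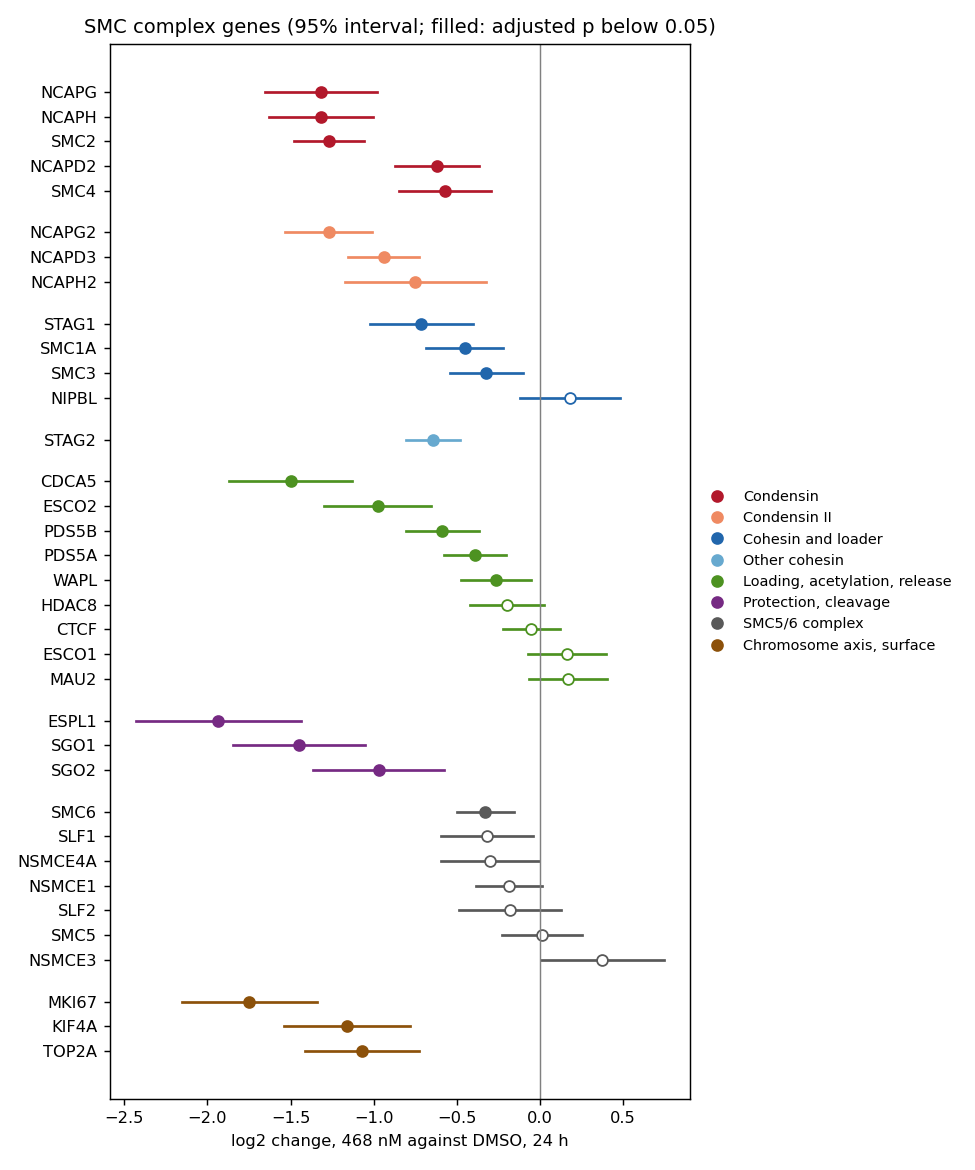
Log2 change at 468 nM against DMSO at 24 h for the condensin, cohesin and related genes tested, grouped by role, with 95% intervals; filled points are called at an adjusted p below 0.05. Condensin I and II, the cleavage and protection genes and the chromosome axis genes all lie below 0, whereas the SMC5/6 genes run from -0.33 to 0.38.

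Genes of the cell cycle moved on the same arrays. All 11 tested genes of a list of G2 and mitosis genes were lower at 468 nM and 24 h, with a median change of -1.39. So were all 12 of a list of S phase genes, with a median of -1.38. The share of all tested genes called lower was 25.1%. Without replicates 2 and 4 of 468 nM all genes of both lists were again called, with medians of -1.68 and -1.38. The largest were AURKA, a mitotic kinase, at -2.08, and GINS2, a subunit of the replicative helicase, at -1.94. Averaged over the G2 and mitosis list and set against DMSO of the same time, the 5 arrays of 468 nM at 24 h ran from -1.75 to -0.83, those of 75 nM at 24 h from -0.35 to 0.06, and those of 468 nM at 4 h from -0.28 to -0.06. Replicate 4, the highest of its group for SMC2, SMC4, NCAPG and NCAPH, was also the highest for this list. The S phase average ran from -1.60 to -0.92 at 468 nM and 24 h and from -0.34 to -0.13 at 75 nM and 24 h. The part of these genes in the condensin and cohesin changes was not tested. In RNA from whole cultures a smaller number of cells in a cell cycle phase and less RNA per cell cannot be told apart. At 4 h and 468 nM 2 of the 11 G2 and mitosis genes were called lower, AURKA with a change of -0.86 and PLK1, also a mitotic kinase, with -0.38. Over all tested genes 6.95% were called lower there, and no member was.

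Likeness was measured as the root mean square difference between the centred profiles of the 6 group means, over all tested genes. The condensin average was nearest to TOP2A (0.03), followed by KNTC1 and CENPE, which act at kinetochores, by PRR11 and by the folate enzyme MTHFD1 (0.05). The 5 condensin genes themselves lay between 0.10 (NCAPG) and 0.21 (NCAPD2) from their own average. The cohesin average was nearest to FANCC, ZC3H7B, MED24, U2AF2 and PPM1G (0.02 to 0.03), and its members lay between 0.06 (SMC1A) and 0.25 (STAG1 and NIPBL) from it. STAG1 and NIPBL, which differed from the cohesin average in opposite directions, were thus as far from it as each other.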

How the data were processed

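The members and gene lists were chosen with earlier results of these data known. The authors deposited linear intensity values for 53617 probe sets, summarised with RMA (robust multi-array average) per the submitters' processing notes; the RMA version and genome build were not given in the sources used here. The deposited intensities were transformed to log2. Of the probe sets, 23871 named 1 gene, 1842 several and 27904 were unlisted. A gene was represented by its brightest probe set naming it alone, and each of the 9 members had 1 such set. RAD21 was therefore not analysed here, and cohesin averages cover 4 genes where 5 had been planned. Genes above log2 5 on at least 4 arrays were tested with limma 3.58.1 in R 4.3.3, with 6 group means, 22 residual and 3.84 prior degrees of freedom, and Benjamini-Hochberg adjustment over 9285 genes for each of 9 comparisons. The scripts, run in part with Python 3.11.15, were tested on simulated data.

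All members were named, other list genes where called in a dose comparison with DMSO or as not called, and the 5 tested genes nearest each average by group means. RMA equalises the arrays, which hides any change common to most transcripts, and precision is limited by how many arrays there are. Promoter windows came from RefSeq (GRCh38.p14). Alternatives changed the filter, the probe sets of a gene, the normalization, the samples fitted, the spread model, array weights, the replicate block and the arrays included; leaving out 2 arrays of low weight was chosen after seeing the data.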

Additional observations from a re-analysis of the deposited data

Results flagged for a closer look

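For 7 members the effect of 468 nM differed between the time points, all in the lower direction, against 12.7% of all tested genes called lower. Here limma tested the difference itself, the change at 24 h minus the change at 4 h. It was -1.28 in NCAPG (adjusted p = 0.000267), -1.25 in SMC2 (adjusted p = 1.46e-06) and -1.20 in NCAPH (adjusted p = 0.000241). The values were -0.66 in NCAPD2 (adjusted p = 0.00702), -0.65 in SMC4 (adjusted p = 0.0144), -0.72 in STAG1 (adjusted p = 0.0148) and -0.49 in SMC1A (adjusted p = 0.0264). The 4 h and 24 h arrays were compared each with DMSO of their own time. Only 4 members were called with dim genes kept in the test, and 4 with arrays shifted by reference genes. Over all genes 849 of 22357 and 749 of 9285 were then called lower, against 1179 of 9285 in the main fit. No array stood apart from its group by Dixon's test in any of the 54 pairs of member and group. With 4 or 5 arrays in a group this test seldom singles out an array. Replicates 2 and 4 of 468 nM at 24 h had array weights of 0.36 and 0.44, the lowest of all arrays.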

How the results depend on the processing

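No called change of a member turned its sign under any alternative run. Of 1656 alternative values for single members and comparisons, 1623 stayed on the same side of the threshold, 24 missed it and 9 passed it newly. Under the filter, probe set, normalization, spread and weight alternatives, 7 or 8 members were called at 468 nM against DMSO at 24 h, and leaving out any single array gave 8. With no filter on dim genes 2288 of 22357 genes were called lower there. Of 9285 genes the counts were 2220 after the reference shift, 2337 with an intensity trend and robust spread, 2184 with array weights and 2335 in the main fit. Calls over all genes are not given for single arrays left out. Against 75 nM the range over single arrays left out was 5 to 8, and for the 24 h minus 4 h effect of 468 nM it was 6 to 7. That last count was 4 with no filter on dim genes and 4 with arrays shifted by reference genes. Over all genes 849 of 22357 and 749 of 9285 were then called lower, against 1179 of 9285 in the main fit. The cause was not tested. SMC1A also missed the threshold when only the groups compared were fitted, against 75 nM (adjusted p = 0.0666) and between times (adjusted p = 0.0584).

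Shifting by 9 reference genes moved the median of all genes from -0.03 to -0.15 for 468 nM at 4 h, from -0.01 to -0.13 between doses at 4 h, from 0.01 to 0.12 for the 468 nM effect between times and from 0.00 to 0.14 for DMSO between times. At 468 nM against DMSO at 24 h, 7 of these 9 genes were called, 3 higher and 4 lower. Calls over all genes after the shift were 196 higher and 1011 lower at 468 nM and 4 h, against 368 and 645, and 757 and 76 for DMSO between times, against 244 and 242. For the 468 nM effect between times they were 1112 and 749, against 1005 and 1179, and for 468 nM against 75 nM at 24 h 1274 and 1153, against 1246 and 1614. They were 42 and 212 between doses at 4 h, against 133 lower of 238 called, and 13 and 72 at 75 nM and 24 h, against 37 and 44. Repeated quantile normalization gave 40 and 27 at 75 nM and 4 h, against 31 and 32, 67 and 48 at 75 nM and 24 h, and 473 and 549 at 468 nM and 4 h.

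Title codes fall into 5 sets. Deviations of arrays in a set correlated between -0.13 and 0.34, and 22 of 28 arrays correlated best with an array of their own set. The labels do not say that a set was a batch and not every correlation was above 0.1, so the block was kept as an alternative. The main fit therefore does not account for deviations that arrays of a set shared. How many arrays would match their own set by chance was not calculated. With the sets as a replicate block, 8 members were called at 468 nM against DMSO at 24 h. Against 75 nM 8 were called, SMC3 included (adjusted p = 0.0189), and for the 468 nM effect between times 7 were. Calls over all tested genes rose as well. In the same order of comparisons, 2456, 1768 and 1344 genes were called lower with the block, against 2335, 1614 and 1179 in the main fit. The condensin minus cohesin gap stayed between -0.79 and -0.59 without single arrays.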
